A study of Mus musculus with 10 samples.

Results

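Natural killer (NK) cells and cytotoxic T cells kill target cells, and 10 genes of that machinery were followed in whole mouse liver, out of 54532 genes in the count table. The 10 were taken by gene symbol and are Gzma, Gzmb, Prf1, Nkg7, Klrk1, Klrd1, Ncr1, Klrb1c, Il2rb and Eomes. Livers of 5 mice given napabucasin (BBI608, a furan-fused naphthoquinone known as a blocker of STAT3 signalling) at 20 mg per kg body weight per day by gavage for 7 days were compared with livers of 5 mice given the vehicle, 1% sodium carboxymethyl cellulose (NaCMC), by the same route and for the same time. The labels give no strain, sex or age and no disease or tumour in either group, and they call the 5 libraries of a group biological replicates. Messenger RNA was purified on poly-T beads before sequencing, and the labels list 1 library per replicate.

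Library totals were 15364342 to 17369118 counts in napabucasin and 14124484 to 17759967 counts in vehicle livers. Mitochondrial genes took 9.03% to 19.9% of counts in napabucasin and 7.03% to 19.0% in vehicle livers; all napabucasin libraries lay above the 4 vehicle libraries other than replicate 1, which had 7.03% to 8.78%. The ribosomal RNA share was 0.426% to 1.09% in napabucasin and 0.195% to 0.912% in vehicle livers, and the part of either share in the results was not tested. The tissue label held: summed over 8 hepatocyte markers, libraries ran from 72124 to 130193 counts scaled to library size (CPM) in napabucasin and from 42747 to 157259 CPM in vehicle livers. The lowest of these was vehicle replicate 2, and the other vehicle libraries had 114273 to 157259 CPM. In bulk tissue fewer cells of a type and less RNA per cell cannot be told apart, so every level below is a level per unit of liver RNA. The members are rare transcripts: over all 10 libraries together Klrk1 had 1641 counts, Il2rb 1440, Gzmb 1416, Gzma 948, Nkg7 529, Klrd1 492, Klrb1c 211, Prf1 140, Ncr1 107 and Eomes 22.

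An NK cell reads the surface of a neighbour through activating and inhibitory receptors, and when activation prevails it releases granules towards it. Perforin opens the target's membrane and lets granzymes in, and these proteases start its death. NK cells and their relatives, the type 1 innate lymphoid cells, are abundant among the lymphocytes of the mouse liver, live on interleukin 15 read through the receptor chain Il2rb, and are set up by T-box transcription factors, Eomes among them. Activated CD8+ T cells share most of this programme, so none of the granule genes marks NK cells alone.

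The sequence before the start of these genes is shown because 7 of the 8 members with an entry hold the same 6 letters there. RefSeq promoter sequences (GRCm38.p6) were found for 8 of the 10 members, all but Klrd1 and Il2rb, and the 250 bases before the annotated start were searched on both strands for 7 motifs. TGTGGT, the core that RUNX factors bind, stood in the windows of Gzma, Gzmb, Prf1, Nkg7, Klrk1, Ncr1 and Klrb1c, and in 4614 of all 32851 windows, or in 13.2% of the 10540 tested genes with a window. It was picked for display after the search. The windows of 5 members follow, 5′ to 3′ on the gene's own strand, with TGTGGT or its reverse complement ACCACA in capitals.
Gzmb (chr14:56262335-56262584, minus strand): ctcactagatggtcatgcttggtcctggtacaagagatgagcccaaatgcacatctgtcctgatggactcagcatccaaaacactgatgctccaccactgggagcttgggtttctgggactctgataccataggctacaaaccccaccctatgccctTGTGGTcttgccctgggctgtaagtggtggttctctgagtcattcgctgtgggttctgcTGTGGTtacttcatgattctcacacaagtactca
Prf1 (chr10:61297586-61297835, plus strand): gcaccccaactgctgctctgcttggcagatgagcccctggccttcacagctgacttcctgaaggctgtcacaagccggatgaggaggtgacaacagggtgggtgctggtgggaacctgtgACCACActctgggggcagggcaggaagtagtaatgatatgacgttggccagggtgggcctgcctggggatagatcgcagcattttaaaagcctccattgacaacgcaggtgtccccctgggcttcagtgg
Nkg7 (chr7:43436888-43437137, plus strand): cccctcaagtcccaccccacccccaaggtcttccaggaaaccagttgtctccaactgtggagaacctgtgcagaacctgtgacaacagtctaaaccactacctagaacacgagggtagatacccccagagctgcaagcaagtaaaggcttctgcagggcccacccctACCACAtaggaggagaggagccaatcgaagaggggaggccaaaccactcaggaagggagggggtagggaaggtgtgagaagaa
Klrk1 (chr6:129623865-129624114, minus strand): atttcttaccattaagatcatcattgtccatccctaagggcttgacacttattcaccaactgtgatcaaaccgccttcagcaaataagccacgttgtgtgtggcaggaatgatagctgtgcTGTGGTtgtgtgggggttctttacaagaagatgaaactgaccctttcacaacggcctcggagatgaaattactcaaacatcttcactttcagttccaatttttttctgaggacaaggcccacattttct
Klrb1c (chr6:128788642-128788891, minus strand): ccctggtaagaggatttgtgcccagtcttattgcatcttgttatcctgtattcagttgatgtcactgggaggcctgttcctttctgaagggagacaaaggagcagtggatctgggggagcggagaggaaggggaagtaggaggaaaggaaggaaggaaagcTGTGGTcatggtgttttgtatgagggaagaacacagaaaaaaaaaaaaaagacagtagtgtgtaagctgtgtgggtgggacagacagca
Gzmb held the motif at 93 and 34 bases before its start, Prf1 at 130, Nkg7 at 83, Klrk1 at 129 and Klrb1c at 89, counted to the motif's first letter on the gene's strand. These starts are RefSeq's, and the count table's spans differ from them: the whole Klrb1c window lies inside that table's span of the gene, and the last bases of the Nkg7 and Prf1 windows lie inside theirs, with them the Nkg7 matches nearest its start. The other motifs were rarer among the members. GGTGTGA and the shorter GGTGTG of T-box factors, which overlap, stood in Nkg7 alone (3.33% and 16.3% of all windows), TTCNNNGAA of STAT factors in Nkg7 (7.02%) and TGANTCA of AP-1 in Gzmb (6.75%). A spaced pair of GAAA, as in interferon-stimulated response elements, stood in Gzma and Eomes (2.98%), and AGGAAG of ETS factors in Prf1, Nkg7 and Klrb1c (29.5%). A match of letters is a description of the window and shows no binding.

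Most of the cytotoxic genes lay higher in napabucasin livers, 8 of the 9 that could be tested at 1.74 to 2.63 times the vehicle level, but no member passed the test over all genes. Of the 10 members, 9 passed the low-count filter and 8 of these had a log2 fold change (napabucasin over vehicle) above 0, which 50.1% of all 14244 genes tested did. The median of the 9 was 0.89, against 0.00 over all genes, and 5.51% of all genes lay at or above it. At an unadjusted p under 0.05 in edgeR's quasi-likelihood test, 7 of 9 members were higher in napabucasin livers, where 9.34% of all genes tested were, and 0 were lower, where 5.83% were. The members and the lists below were chosen with earlier results of these data known, so such shares are a description and no independent support. After Benjamini-Hochberg adjustment edgeR called 0 members and 0 genes of any kind (0.0%) at an adjusted p under 0.05; the smallest adjusted p was 0.0644 over all genes and 0.204 among the members. By another test the counts differ: DESeq2 called Gzmb (adjusted p = 0.0322, where it called 1.07% of genes higher), and limma-voom with quality weights called Gzmb (adjusted p = 0.0470) and Prf1 (adjusted p = 0.0477; 0.688% of genes called higher).

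The filter bears on these counts. It asked for 0.600 CPM in at least 5 libraries, and Prf1 reached that level in 5 napabucasin libraries and 1 vehicle library and Ncr1 in 4 and 1, so both entered mainly through the group in which they were higher. Without the filter all 10 members could be fitted: 9 had a log2 fold change above 0, the median was 0.86 against -0.03 over 26567 genes, and 7 were higher at an unadjusted edgeR p under 0.05, where 6.33% of genes were.

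**Figure D1:**
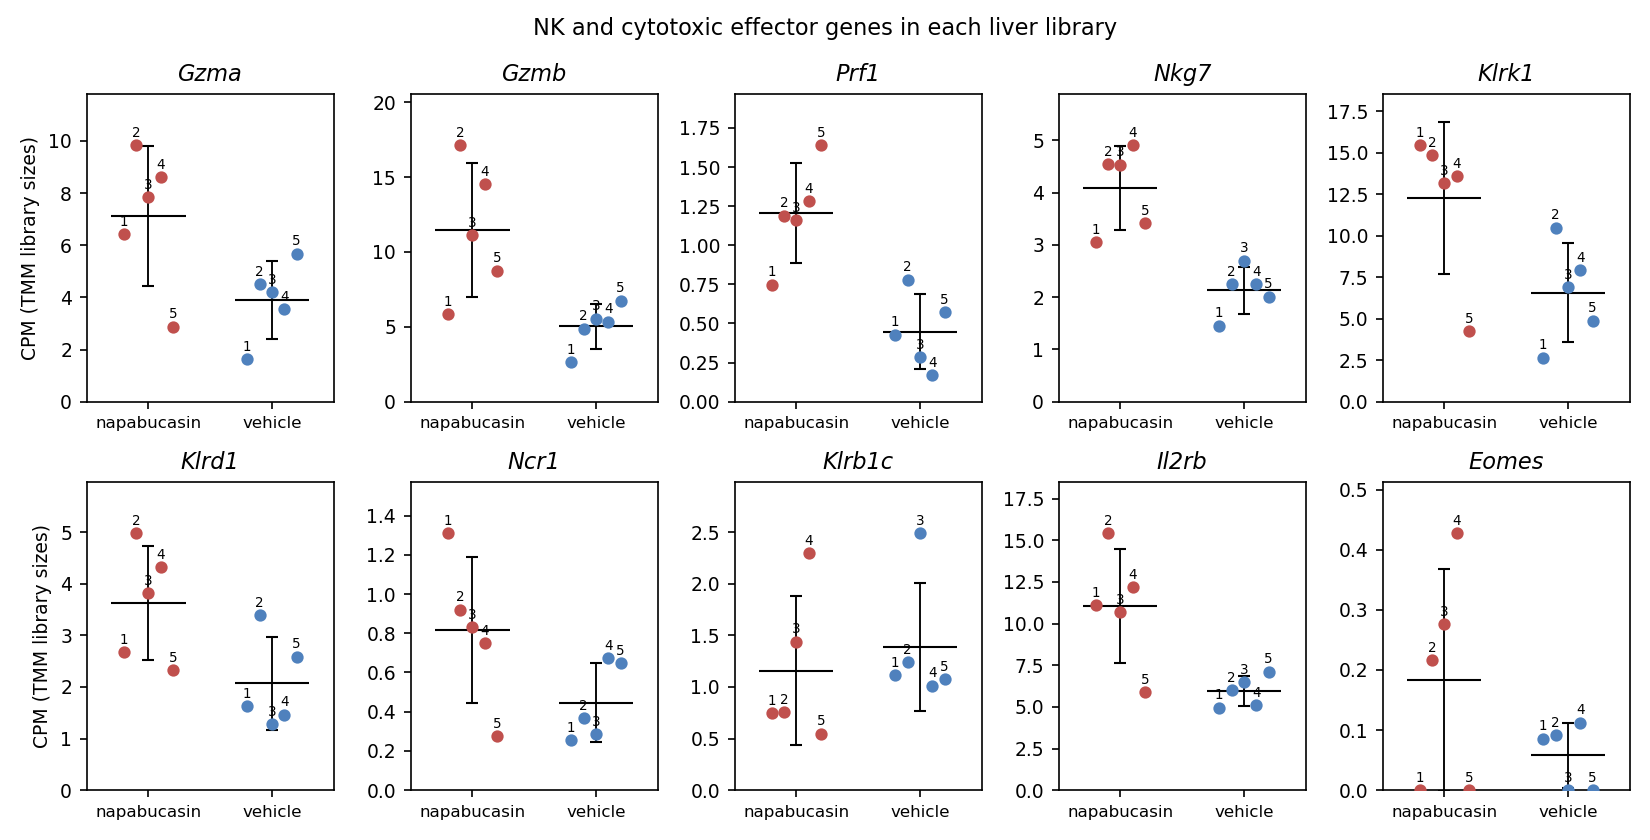
Level of each of the 10 members in every liver library, in CPM, napabucasin left and vehicle right; points carry the replicate number, and the line and bar give the mean and SD of 5 libraries. In Nkg7 alone all napabucasin libraries (3.06 to 4.91 CPM) lie above all vehicle libraries (1.45 to 2.70 CPM), and napabucasin replicate 5 is the lowest of its group in 6 of the 9 tested members.

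Of the 4 granule genes, Prf1, Gzmb and Nkg7 had the 3 largest log2 fold changes of the tested members and Gzma the sixth, an order that was not tested. Granzyme B (Gzmb, chromosome 14, 56258838 to 56262260, GRCm38), the protease that cleaves caspases and their substrates in the target cell, measured 5.86, 17.2, 11.1, 14.5 and 8.76 CPM in napabucasin replicates 1 to 5, against 2.65, 4.87, 5.54, 5.34 and 6.75 CPM in vehicle replicates 1 to 5. Napabucasin replicate 1 lay inside the vehicle range and the other 4 lay above it. The means were 11.5 ± 4.49 CPM in napabucasin and 5.03 ± 1.50 CPM in vehicle livers (SD, n = 5 each), and the log2 fold change was 1.19 (SE 0.31, 95% interval 0.53 to 1.85; edgeR adjusted p = 0.204). Gzmb ranked 124th of 14244 genes by p.

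Perforin (Prf1, chromosome 10, 61297833 to 61304680) forms the pore. It measured 0.748, 1.19, 1.16, 1.28 and 1.64 CPM in napabucasin replicates 1 to 5, against 0.428, 0.781, 0.284, 0.169 and 0.574 CPM in vehicle replicates 1 to 5. All napabucasin libraries except replicate 1 lay above the highest vehicle library, replicate 2. These CPM rest on 12 to 24 counts per napabucasin library and 3 to 17 counts per vehicle library. The log2 fold change of 1.39 was the largest of the 9 members, and its interval was wide (SE 0.44, 0.45 to 2.34, edgeR adjusted p = 0.236).

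Nkg7 (chromosome 7, 43437073 to 43438249), a membrane protein of cytotoxic granules needed for their efficient release, measured 3.06, 4.54, 4.53, 4.91 and 3.42 CPM in napabucasin replicates 1 to 5, against 1.45, 2.25, 2.70, 2.25 and 2.01 CPM in vehicle replicates 1 to 5. The groups did not overlap, which held for 1 of the 9 members tested and for 1.21% of all genes in this direction. Its log2 fold change was 0.94 (SE 0.26, 0.38 to 1.49, edgeR adjusted p = 0.221), and the exact two-sided permutation test of log2 CPM gave p = 0.0079, the smallest that 5 against 5 libraries allow without regard to replicate numbers. With the replicate block, edgeR gave Nkg7 an adjusted p of 0.0966.

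Granzyme A (Gzma, chromosome 13, 113093825 to 113100981) is the other main granzyme of NK cells, a protease with a different cleavage preference from granzyme B. In napabucasin replicates 1 to 5 it measured 6.42, 9.85, 7.85, 8.60 and 2.87 CPM, against 1.62, 4.50, 4.19, 3.54 and 5.67 CPM in vehicle replicates 1 to 5. Napabucasin replicate 5 lay below 4 of the 5 vehicle libraries, and the other 4 lay above all of them. The log2 fold change was 0.86 (SE 0.35, 0.11 to 1.62, edgeR adjusted p = 0.298; exact permutation p = 0.0952).

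Among the receptors, 3 belong to the lectin-like family encoded on chromosome 6. Klrk1 (129610323 to 129623864) encodes NKG2D, which activates NK and CD8+ T cells on meeting stress-induced ligands. It measured 15.5, 14.8, 13.2, 13.6 and 4.24 CPM in napabucasin replicates 1 to 5, against 2.65, 10.5, 6.89, 7.92 and 4.88 CPM in vehicle replicates 1 to 5. Napabucasin replicates 1 to 4 lay close together above every vehicle library, while replicate 5 lay below all vehicle libraries but replicate 1. The log2 fold change was 0.89 (SE 0.37, 0.09 to 1.69, edgeR adjusted p = 0.307; exact permutation p = 0.103).

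Klrd1 (chromosome 6, 129591782 to 129598775), which encodes CD94, pairs with NKG2 chains and reads a non-classical MHC class I molecule. It measured 2.68, 4.98, 3.82, 4.33 and 2.33 CPM in napabucasin replicates 1 to 5, against 1.62, 3.40, 1.28, 1.46 and 2.58 CPM in vehicle replicates 1 to 5. Napabucasin replicates 2, 3 and 4 lay above the vehicle range, and replicates 1 and 5 inside it. The log2 fold change was 0.80 (SE 0.34, 0.07 to 1.53, edgeR adjusted p = 0.312).

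Ncr1 (chromosome 7, 4337724 to 4345164) encodes NKp46, an activating receptor largely restricted to NK cells and other innate lymphoid cells, which makes it the closest to an NK marker here. It had 21, 17, 15, 14 and 4 counts in napabucasin replicates 1 to 5, against 3, 8, 4, 12 and 9 counts in vehicle replicates 1 to 5. As CPM these were 0.816 ± 0.372 in napabucasin and 0.446 ± 0.200 in vehicle livers (SD, n = 5 each). Napabucasin replicate 5 lay near the bottom of the vehicle range and the other 4 above it, and the log2 fold change of 0.85 had an interval that held 0 (SE 0.47, -0.17 to 1.87, edgeR adjusted p = 0.396).

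Klrb1c was the only tested member with a log2 fold change below 0. It encodes a lectin-like receptor of the NKR-P1 family (chromosome 6, 128778485 to 128789215) by which NK cells are recognised in some mouse strains, and the labels give no strain. It measured 0.748, 0.757, 1.44, 2.30 and 0.547 CPM in napabucasin replicates 1 to 5, against 1.11, 1.24, 2.49, 1.01 and 1.08 CPM in vehicle replicates 1 to 5. Napabucasin replicates 1, 2 and 5 lay below every vehicle library, while replicates 3 and 4 lay inside the vehicle range. The log2 fold change was -0.24 (SE 0.45, -1.20 to 0.72, edgeR adjusted p = 0.799), and without vehicle replicate 3 it was 0.067. In GENCODE M21, whose exon length for the gene equals that of the count table, 413 of 2961 exon bases (13.9%) are shared with Gm44511 on the same strand, which had 0 counts; how reads from that stretch were assigned is not given in the sources used here.

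Il2rb, the chain shared by the receptors of interleukin 2 and interleukin 15, was steady in vehicle livers and less so in napabucasin livers. It lies on chromosome 15 (78479256 to 78495271) and measured 11.1, 15.4, 10.7, 12.2 and 5.88 CPM in napabucasin replicates 1 to 5, against 4.96, 6.02, 6.47, 5.11 and 7.11 CPM in vehicle replicates 1 to 5. Napabucasin replicate 5 lay inside the vehicle range and the other 4 above it. The SD was 0.907 on a mean of 5.93 CPM in vehicle and 3.44 on a mean of 11.1 CPM in napabucasin livers. The log2 fold change was 0.90 (SE 0.24, 0.37 to 1.42, edgeR adjusted p = 0.221).

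Eomes (chromosome 9, 118478212 to 118486132), the T-box factor that distinguishes NK cells from type 1 innate lymphoid cells in mouse liver, was too scarce to test. It had 0, 4, 5, 8 and 0 counts in napabucasin replicates 1 to 5, against 1, 2, 0, 2 and 0 counts in vehicle replicates 1 to 5. Where a library had 0 counts, up to 3 counts are allowed, which is 0.187 and 0.205 CPM in napabucasin replicates 1 and 5 and 0.213 and 0.215 CPM in vehicle replicates 3 and 5 (counting error only). Fitted without the filter, its log2 fold change was 1.50 with an SE of 1.23 (edgeR adjusted p = 0.554), so no direction was detectable at this depth. An antisense gene, Gm33460, shares 118 of its 4155 exon bases and had 4 counts in all, and the strand setting of the counting is not given in the sources used here.

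**Figure D2:**
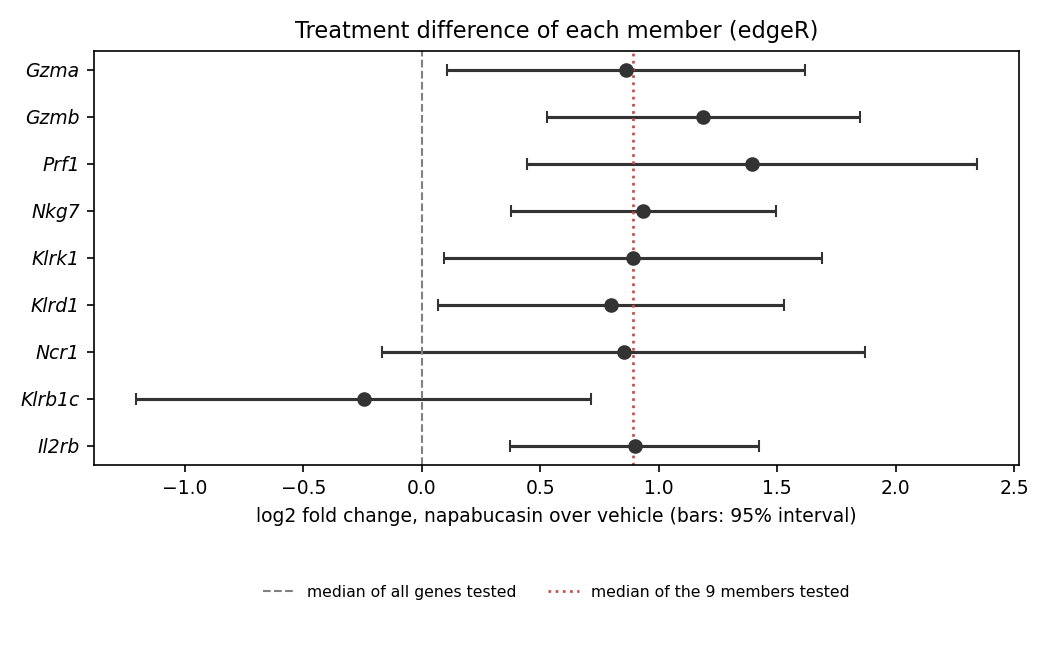
Log2 fold change of napabucasin over vehicle livers for the 9 tested members from edgeR, with 95% intervals; the dashed line is the median of all 14244 genes tested (0.00) and the dotted line that of the 9 members (0.89). The intervals of Ncr1 and Klrb1c hold 0, and that of Klrb1c lies wholly below the members' median.

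Levels of different genes can be set side by side per length, as FPKM (fragments per unit of gene length and of library size, the authors' values). In napabucasin livers mean FPKM ran in the order Gzmb (7.90 ± 3.09), Gzma (6.99 ± 2.64), Nkg7 (4.42 ± 0.894), Klrd1 (2.79 ± 0.863), Il2rb (2.54 ± 0.790), Klrk1 (1.68 ± 0.625), Ncr1 (0.522 ± 0.235), Prf1 (0.460 ± 0.123), Klrb1c (0.386 ± 0.241) and Eomes (0.0439 ± 0.0440; SD, n = 5 each). In vehicle livers the order was Gzma (3.87 ± 1.51), Gzmb (3.49 ± 1.08), Nkg7 (2.32 ± 0.498), Klrd1 (1.60 ± 0.690), Il2rb (1.38 ± 0.225), Klrk1 (0.906 ± 0.404), Klrb1c (0.465 ± 0.209), Ncr1 (0.288 ± 0.132), Prf1 (0.172 ± 0.0917) and Eomes (0.0137 ± 0.0128). The granzymes stood at the top in both groups, and their order relative to each other was the stated one in 3 of 5 libraries of each group, so these neighbours did not differ beyond their spread. In napabucasin livers the same held for Ncr1, Prf1 and Klrb1c at the low end, where neighbours kept their order in 3 of 5 libraries each. In vehicle livers Klrb1c lay above Ncr1 in 3 of 5 libraries and Ncr1 above Prf1 in 4 of 5. The vehicle ranges of Klrb1c (0.340 to 0.836 FPKM) and Prf1 (0.0649 to 0.296 FPKM) did not overlap. Nkg7 lay above Klrd1 in 5 of 5 napabucasin and 4 of 5 vehicle libraries. Klrk1, the member with the most counts, ranked sixth per length, at a gene length of 7183 bases in the count table. That length is the gene's and need not be that of its main transcript.

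**Figure D3:**
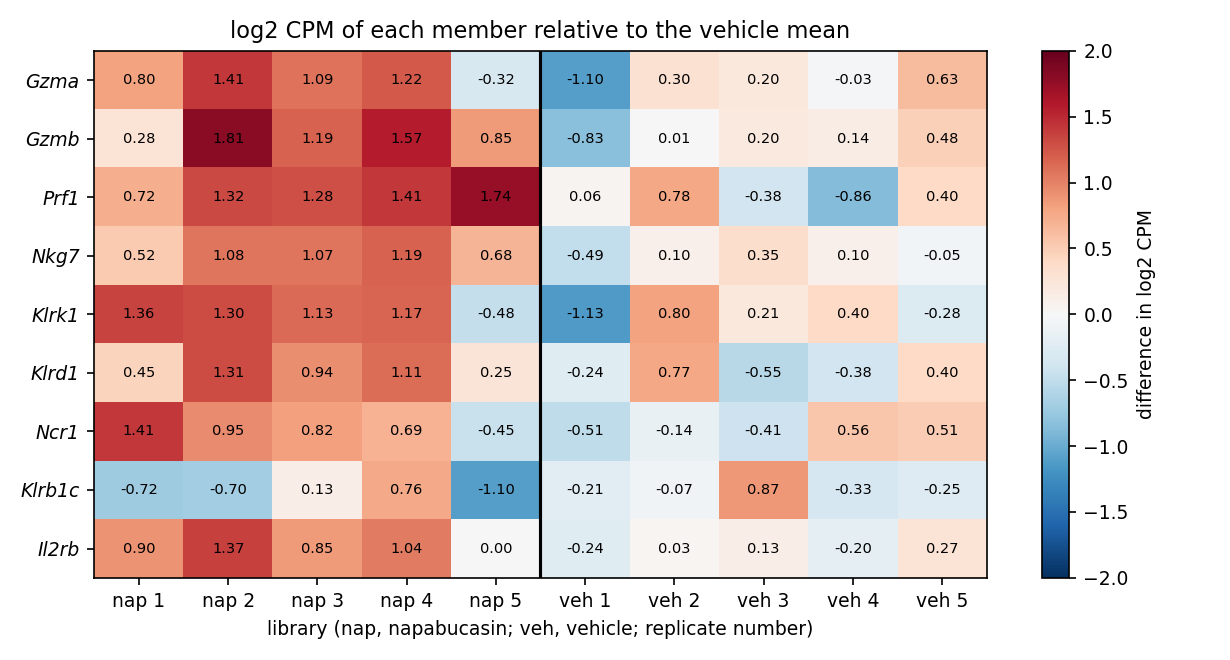
Difference in log2 CPM of each tested member from its mean over the vehicle libraries, by library, with the 5 napabucasin libraries left of the line and the 5 vehicle libraries right of it; red is above and blue below the vehicle mean. Napabucasin replicates 3 and 4 are above it in every member and replicate 2 in every member but Klrb1c, while napabucasin replicate 5 is above it in Prf1 (1.74), Gzmb (0.85), Nkg7 (0.68) and Klrd1 (0.25) and below it in Klrb1c (-1.10), Klrk1 (-0.48), Ncr1 (-0.45) and Gzma (-0.32).

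Read by library, the median of the 9 members relative to the vehicle mean (log2 CPM) was 0.72, 1.31, 1.07, 1.17 and 0.00 in napabucasin replicates 1 to 5, against -0.49, 0.10, 0.20, -0.03 and 0.40 in vehicle replicates 1 to 5. Napabucasin replicates 1 to 4 lay above all vehicle libraries, and replicate 5 lay among them. Napabucasin replicate 5 was the lowest of its group in 6 of 9 members, yet it had the highest Prf1 of all 10 libraries and lay above the whole vehicle range in Gzmb, Prf1 and Nkg7. Vehicle replicate 1 was the lowest of its group in 6 of 9 members.

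Napabucasin replicate 5 and vehicle replicate 1 were also the lowest of their groups in Kupffer cell markers. Summed over 6 Kupffer cell markers (resident liver macrophages), napabucasin replicate 5 measured 460.3 CPM, against 1618 to 1775 CPM in the other 4 napabucasin libraries, and vehicle replicate 1 measured 232 CPM, against 726 to 1242 CPM in the other 4 vehicle libraries. Vehicle replicate 1 also had 19.0% of its counts in mitochondrial genes, against 7.03% to 8.78% in the other vehicle libraries. In T cell markers vehicle replicate 1 was not apart (15.0 CPM, in a vehicle range of 12.5 to 18.8 CPM), while napabucasin replicate 5 was the lowest of its group (20.9 CPM, in a range up to 49.8 CPM). The part of these libraries in the members' result was not tested. The members' median was 1.06 without napabucasin replicate 5 and 0.71 without vehicle replicate 1. With both left out, a choice made after seeing the data, it was 0.89, 7 of 9 were higher at an unadjusted edgeR p under 0.05, and 0 members were called.

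The members were next compared with one another, as log2 ratios of counts plus 0.5 within a library, which any scaling of whole libraries leaves unchanged. The 36 ratios of the 9 tested members were chosen after the data were seen. Exact two-sided permutation tests gave an unadjusted p under 0.05 for 7 of them, 6 of which involve Klrb1c (of the 8 that do), and none passed after adjustment over the 36 (smallest adjusted p = 0.143). The Gzmb to Klrb1c ratio averaged 3.37 ± 0.77 in napabucasin and 1.86 ± 0.66 in vehicle livers on the log2 scale (SD, n = 5 each), a difference of 1.51 with no overlap of the groups (exact permutation p = 0.0079, adjusted p = 0.143). The Prf1 to Klrd1 ratio, the other one, differed by 0.64 (exact permutation p = 0.0238, adjusted p = 0.143). Ratios among Gzma, Klrk1, Klrd1, Ncr1 and Il2rb differed by at most 0.13, with Klrk1 to Ncr1 the largest and SDs of 0.23 in napabucasin and 0.82 in vehicle livers.

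Beyond the 10 members, lists of genes that act with them were read from the same fit; none of their genes was called by edgeR at an adjusted p under 0.05, and counts at an unadjusted p under 0.05 stand beside the same background of 9.34% higher and 5.83% lower. Further granule and killing genes lay higher in 9 of 9 tested (median log2 fold change 0.79, 3 higher at an unadjusted p under 0.05). Unc13d, which primes granules for fusion, measured 5.74 ± 2.00 CPM in napabucasin and 2.79 ± 0.528 CPM in vehicle livers (SD, n = 5 each; log2 fold change 1.04), the granule protease Ctsw had a log2 fold change of 0.94, the granule proteoglycan Srgn 0.79 and the fusion factor Stxbp2 0.35. Gzmk, Gzmc, Gzmm, Ifng and Cst7 of this list were too low to test. Of 4 tested granzyme inhibitors 0 reached an unadjusted p under 0.05 (median 0.17), and Serpinb9, the inhibitor of granzyme B, measured 8.81 ± 3.51 CPM in napabucasin and 13.6 ± 5.47 CPM in vehicle livers (log2 fold change -0.63, edgeR adjusted p = 0.355).

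Other NK receptors lay higher in 10 of 10 tested, with a median of 0.68 and 2 at an unadjusted p under 0.05, while 13 more of the list were too low to test. Cd226, an activating adhesion receptor, was near or below the filter's level in vehicle libraries (0.355 to 0.643 CPM). It entered the test mainly through napabucasin libraries (0.411 to 2.22 CPM). Its means were 1.22 ± 0.675 CPM in napabucasin and 0.464 ± 0.120 CPM in vehicle livers (SD, n = 5 each), with a log2 fold change of 1.37. Klra7, of the Ly49 family, had 1.08, Klrc2, a partner of Klrd1, 0.87 and Cd160 0.64; Klra and Klrc genes are close copies of one another and can share reads, so their separate values are uncertain. Downstream signalling genes lay higher in 10 of 11 tested (median 0.80, 5 at an unadjusted p under 0.05), led by the kinases Lck (log2 fold change 1.36) and Syk (1.31), the phospholipase Plcg2 (0.82) and the exchange factor Vav1 (0.91), all of which also serve other lymphocytes or myeloid cells. The tested signalling gene below 0 was the kinase Zap70, at -0.76 (edgeR adjusted p = 0.368).

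Transcription factors of the NK lineage were mixed, with 10 of 12 above 0 (median 0.42), of which 3 higher and 2 lower genes had an unadjusted p under 0.05. Ikzf3, a zinc finger factor of lymphocytes, measured 5.18 ± 1.56 CPM in napabucasin and 1.52 ± 0.779 CPM in vehicle livers (SD, n = 5 each; log2 fold change 1.74, edgeR adjusted p = 0.157), and Stat4, which relays interleukin 12, had a log2 fold change of 0.98. Tox (-0.63) and Id2 (-0.61), both required for NK cell development, lay on the other side. Id2 stood at 103 ± 16.2 CPM in napabucasin and 158 ± 56.6 CPM in vehicle livers. These are levels in whole liver, and which cells the Tox and Id2 transcripts came from was not tested.

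The cytokine axes were read separately and not tested against each other. The interleukin 2 and 15 axis apart from Il2rb had a median of 0.09 over 8 genes (-0.020 to 0.23 with 1 library left out), with 1 at an unadjusted p under 0.05, Il15 itself, at 7.75 ± 2.89 CPM in napabucasin and 4.88 ± 1.01 CPM in vehicle livers (SD, n = 5 each; log2 fold change 0.67). The other receptor chain Il2rg had 0.57, Stat5b 0.34 and Jak1 0.12. In the interleukin 12 and 18 axis 5 of 5 tested lay above 0 (median 0.47, or 0.36 to 0.66 with 1 library left out, 2 at an unadjusted p under 0.05): Il18rap, a chain of the interleukin 18 receptor, measured 4.73 ± 3.40 CPM in napabucasin and 1.18 ± 0.259 CPM in vehicle livers (log2 fold change 1.99), Il18 had 0.60, Il18bp 0.45 and Il18r1 0.47.

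Chemokines and homing receptors of NK cells lay above 0 in 9 of 11 tested (median 0.61, 3 at an unadjusted p under 0.05). Ccl5, made by cytotoxic lymphocytes, measured 11.7 ± 4.51 CPM in napabucasin and 6.20 ± 1.20 CPM in vehicle livers (SD, n = 5 each, log2 fold change 0.92), the interferon-induced chemokine Cxcl9 had 0.62, the liver homing receptor Cxcr6 0.96 and Xcl1 0.86. S1pr5 (-0.72) and Cx3cr1 (-0.13) lay below 0, neither at an unadjusted p under 0.05. Adhesion and residence genes lay above 0 in 8 of 8 (median 0.92, 5 at an unadjusted p under 0.05), with the early activation antigen Cd69 at 1.83, Cd2 at 1.18 and the integrin chain Itgb2 at 0.97. Xcl1 (0.225 to 0.770 CPM) and Cd69 (0.230 to 1.03 CPM) lay around the filter's level in vehicle libraries. Both lay above it in every napabucasin library. Of the ligands of NK receptors 6 of 11 lay above 0, with a median of 0.10 and 1 at an unadjusted p under 0.05, the NKG2D ligand Ulbp1 at 1.02, beside Cd48 at 0.69, Nectin2 at -0.32 and Clec2d at -0.34. The other NKG2D ligands of the list that were tested, Raet1e and Raet1d, had -0.53 and -0.31. Ulbp1 lay around the filter's level in vehicle libraries (0.257 to 1.29 CPM) and above it in napabucasin libraries (1.03 to 2.83 CPM).

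**Figure D4:**
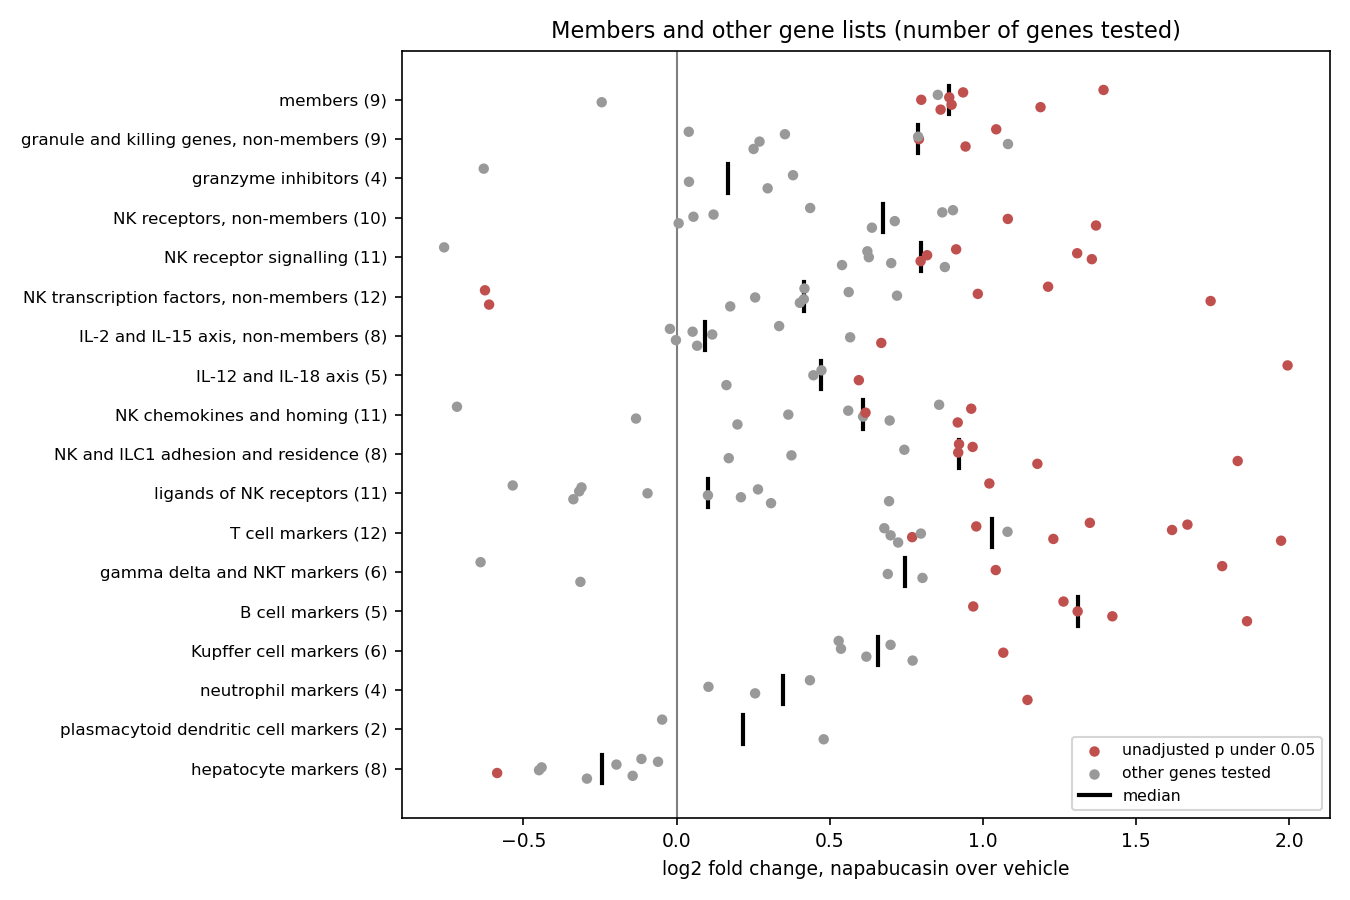
Log2 fold change of napabucasin over vehicle livers for each tested gene of the members and of 17 other lists, 1 point per gene; red points have an unadjusted edgeR p under 0.05 and black bars are list medians. The members' median is 0.89, that of T cell markers 1.03, that of B cell markers 1.31 and that of hepatocyte markers -0.24.

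T, B and Kupffer cell markers lay higher in napabucasin livers in every gene tested, and hepatocyte markers lower in every gene. T cell markers lay higher in 12 of 12, with a median of 1.03 and 7 at an unadjusted p under 0.05, and their summed level was 20.9 to 49.8 CPM in napabucasin and 12.5 to 18.8 CPM in vehicle livers. Cd3d, which signals for the antigen receptor of T cells, had a log2 fold change of 1.97, Cd8a, the co-receptor of cytotoxic T cells, 1.62, and the receptor constant regions Trbc1 and Trbc2, which are close copies and can share reads, 1.67 and 1.35. Cd3d lay around the filter's level in vehicle libraries (0.393 to 1.01 CPM) and above it in napabucasin libraries (1.57 to 3.46 CPM). Markers of B cells, which make antibody, lay higher in 5 of 5 (median 1.31, 5 at an unadjusted p under 0.05), with sums of 37.2 to 72.8 CPM in napabucasin and 14.7 to 23.5 CPM in vehicle livers. No gene of any marker list was at 0 in all libraries.

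Of 6 genes listed for gamma delta and NKT cells, which can carry NK receptors, 4 lay above 0 (median 0.75, 2 at an unadjusted p under 0.05). The log2 fold change was 1.78 for Trdc, 1.04 for Tcrg-C2, -0.31 for Cd1d1 and -0.64 for Zbtb16. Their sums were 192 to 239 CPM in napabucasin and 194 to 346 CPM in vehicle livers. Cd1d1 alone measured 211 ± 21.1 CPM in napabucasin and 262 ± 58.1 CPM in vehicle livers (SD, n = 5 each), most of these sums. It encodes the molecule that NKT cells recognise, so the sums are no measure of these cells. Trdc was below the filter's level in all vehicle libraries (0 to 0.513 CPM) and entered the test only through napabucasin libraries (0.641 to 1.37 CPM). Kupffer cell markers lay above 0 in 6 of 6 (median 0.66, 1 at an unadjusted p under 0.05), with sums of 460.3 to 1775 CPM in napabucasin and 232 to 1242 CPM in vehicle livers. Neutrophil markers had a median of 0.35 over 4 tested, which was 0.11 without napabucasin replicate 3, 0.76 without vehicle replicate 3 and 0.82 by limma-voom (sums of 18.0 to 65.2 CPM in napabucasin and 13.1 to 40.9 CPM in vehicle livers) and plasmacytoid dendritic cell markers 0.22 over 2 (12.6 to 24.8 CPM in napabucasin and 15.4 to 22.0 CPM in vehicle livers). Hepatocyte markers lay below 0 in 8 of 8 (median -0.24, 1 lower at an unadjusted p under 0.05). The part of these cells in the members' result was not tested.

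The members were also set against the T cell markers within each library. The summed CPM of the members over that of the T cell markers was 1.27, 1.40, 1.45, 2.01 and 1.44 in napabucasin replicates 1 to 5, against 1.12, 1.80, 2.04, 2.20 and 2.08 in vehicle replicates 1 to 5. The groups overlapped, with 1.51 ± 0.287 in napabucasin and 1.85 ± 0.432 in vehicle livers (SD, n = 5 each).

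Within groups, the genes whose level followed the members most closely were read as a description of the libraries. Log2 CPM less the group mean was correlated with the mean of the 9 tested members so treated, over 10 libraries and 13335 candidate genes. The highest Pearson r belonged to Vsir (0.97, Spearman rho 0.93), Maml2 (0.95, 0.78), Arhgap19 (0.95, 0.83), Rcan1 (0.94, 0.89), Slc12a2 (0.94, 0.82) and Slc40a1 (0.94, 0.83); as the highest of so many they carry no p. Without napabucasin replicate 5 and vehicle replicate 1, the libraries farthest from the median, r was 0.88 for Vsir, 0.82 for Maml2, 0.86 for Arhgap19, 0.77 for Rcan1, 0.74 for Slc12a2 and 0.73 for Slc40a1 over 8 libraries. None of the 6 was called between the groups: Vsir, an inhibitory ligand of the B7 family, had a log2 fold change of 0.43 (edgeR adjusted p = 0.503) and the iron exporter Slc40a1 of 0.20 (edgeR adjusted p = 0.778).

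**Figure D5:**
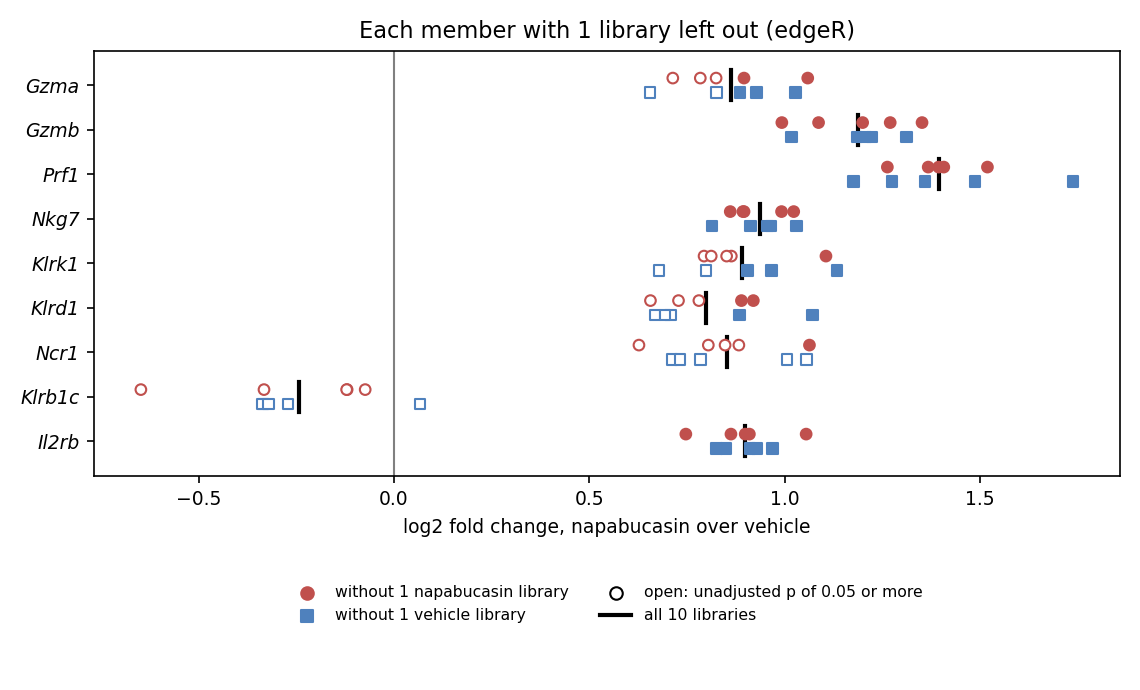
Log2 fold change of each tested member with 1 library left out, circles for a napabucasin and squares for a vehicle library; filled symbols have an unadjusted edgeR p under 0.05 and the black bar is the value with all 10 libraries. Gzmb, Prf1, Nkg7 and Il2rb stay filled in 10 of 10 fits, and Klrb1c crosses 0 without vehicle replicate 3.

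With 1 library left out at a time, the members differed in how often they passed the unadjusted threshold. The ranges of the log2 fold change overlapped among Gzma, Klrk1, Klrd1, Il2rb and Nkg7, while those of Prf1 and Klrb1c lay apart from them. Gzmb, Prf1, Nkg7 and Il2rb had an unadjusted edgeR p under 0.05 in 10 of 10 fits, Gzma in 5, Klrk1 and Klrd1 in 4 each, Ncr1 in 1 and Klrb1c in 0. Over these fits the log2 fold change ran from 0.66 to 1.06 for Gzma, 0.68 to 1.13 for Klrk1 and 0.66 to 1.07 for Klrd1, beside 0.75 to 1.05 for Il2rb and 0.81 to 1.03 for Nkg7. The log2 fold change of Prf1 was lowest, 1.18, when vehicle replicate 4 was dropped and highest, 1.74, when vehicle replicate 2 was, and that of Gzmb lay between 0.99 (napabucasin replicate 2 dropped) and 1.35 (napabucasin replicate 1 dropped). The number of members at that threshold was 4 without napabucasin replicate 2, 3 or 4 or without vehicle replicate 1, and 8 without napabucasin replicate 5. No member was called at an adjusted p under 0.05 in any of these 10 fits; the smallest adjusted p was 0.0893, for Il2rb.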

How the data were processed

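Whole-liver RNA of 5 napabucasin and 5 vehicle mice was analysed from the authors' deposited gene counts, whole-number reads per gene without scaling. CASAVA, HISAT2 2.0.5, featureCounts 1.5.0-p3 and the build GRCm38 (mm10) are named in the submitters' processing notes; strand setting and annotation release were not found in the labels or headers. The authors' deposited FPKM values, per gene length and scaled per library, were used for ordering genes and as an alternative.

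The main test, run in R 4.3.3, was that of edgeR 4.0.16 (filterByExpr, TMM, robust quasi-likelihood F test, treatment as the only term) over 14244 of 54532 genes, with Benjamini-Hochberg adjustment and a threshold of 0.05. SEs are those implied by the F statistic, CPM use TMM library sizes, and log2 CPM a prior count of 2. P-values rest on the spread between libraries (common biological coefficient of variation 0.325). Single genes and ratios were also compared by exact two-sided permutation over all assignments of the libraries. Tests were checked on simulated data, and a chi-square per degree of freedom of 36.2 or more between libraries of a group showed no duplicated library.

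The members and lists were chosen with earlier results of these data known. Named genes are the 10 members, up to 4 genes of each list with the smallest p, and the 6 genes of at least 1 CPM closest to the members, except 1 gene that is not reported here; Cd244a was entered under the table's symbol after the files were read. Alternatives were size-factor or no normalization, no filter, DESeq2 1.42.0, limma 3.58.1 (voom with quality weights, or log2(FPKM + 1) and log2(FPKM + 0.1) at a mean FPKM of at least 0.1, and log2(FPKM + 1) unfiltered), a replicate block and each library left out. Deviations of same-numbered libraries from their group means had correlations of 0.154 (number 1), 0.227 (2), 0.208 (3), 0.270 (4) and 0.278 (5). Each exceeds 0.1, and on that ground alone, since the labels do not say what a number shares, the replicate block is given beside any result whose call it changes. The best correlated vehicle library had the same number for napabucasin replicates 2, 3 and 4. It was vehicle replicate 2 for napabucasin replicate 1 and vehicle replicate 1 for napabucasin replicate 5. The main fit and the permutation tests take no account of the numbers.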

Additional observations from a re-analysis of the deposited data

Results flagged for a closer look

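Among 58 groups of 5 values examined (members, list sums and library shares), 6 had 1 library apart from the rest by Dixon's gap test, and about 2.9 would be so by chance. For Klrk1, napabucasin replicate 5 measured 4.24 CPM, while the other 4 napabucasin libraries measured 13.2 to 15.5 CPM. For Klrb1c, vehicle replicate 3 measured 2.49 CPM, while the other 4 vehicle libraries measured 1.01 to 1.24 CPM. Napabucasin replicate 5 also stood apart in 3 sums. NK receptor signalling genes summed to 87.0 CPM in it and to 259 to 302 CPM in the other 4 napabucasin libraries. Genes of the interleukin 12 and 18 axis summed to 50.9 CPM in it and to 98.4 to 117 CPM in the other 4. Kupffer cell markers summed to 460.3 CPM in it and to 1618 to 1775 CPM in the other 4. Mitochondrial genes took 19.0% of counts in vehicle replicate 1 and 7.03% to 8.78% in the other 4 vehicle libraries.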

How the results depend on the processing

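The number of genes called at an adjusted p under 0.05, 0 in edgeR's test, was 1 with library totals as the only scaling, 19 without the filter, 209 by DESeq2, 132 by limma-voom, 1 with log2(FPKM + 0.1) and 0 with size factors or log2(FPKM + 1). It ran from 0 to 18 with 1 library left out (3 without napabucasin replicate 5, 18 without vehicle replicate 1) and was 14 without both of these, a setting added after the data were seen. Called members numbered 1 by DESeq2, 2 by limma-voom and 0 under every other setting. Members higher at an unadjusted p under 0.05, 7 of 9, ran from 4 to 8 with 1 library left out and from 5 to 7 under the other settings. Their median, 0.89, ran from 0.71 to 1.06 with 1 library left out and was lowest, 0.55, with log2(FPKM + 1), whose pseudocount shrinks low genes. Of the members' directions 1 reversed: with 1 library left out, Klrb1c ran from -0.65 (without napabucasin replicate 4) to 0.067 (without vehicle replicate 3). Gzma and Klrk1 had exact permutation p of 0.0952 and 0.103. Under the replicate block there were 0 called genes and 0 called members, 7 members were higher at an unadjusted p under 0.05 (11.8% of genes were), their median was 0.87, and the block changed no call. At an unadjusted p under 0.05 edgeR had 1331 genes higher and 830 lower; the split was 1407 and 361 with library totals, 1616 and 1564 by limma-voom and 1034 and 1004 with log2(FPKM + 1). The cause of these shifts was not tested. Prf1, Ncr1 and Eomes rest on few counts, which limits their precision most.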
